A study of Saccharomyces cerevisiae with 8 samples.

Results

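Internal starts are 5' ends of polyadenylated RNA that map inside a coding region, well past the annotated start codon, on the strand of the gene. They were taken from a table of tagged 5' ends in budding yeast as every position on the 16 nuclear chromosomes that lies in a coding exon of a protein-coding gene of the R64 genome build, from position +51 (the first base of the start codon is +1) to the stop codon. Introns, annotated noncoding genes and positions within 400 nt upstream of another start codon on the same strand were left out. This gave 1049817 of the 1643818 positions in the table (63.9%), in 5655 of 6002 nuclear protein-coding genes, with 1945440 tags in all. A tag is 1 counted 5' end.

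All libraries came from BY4741, a laboratory strain of Saccharomyces cerevisiae of mating type a that carries his3delta1, leu2delta0, ura3delta0 and met15delta0, so every group shares these deletions. The cultures were harvested while dividing exponentially, at 30 °C in YPD. Total RNA was first dephosphorylated, so that only ends protected by a cap should become ligatable, and was divided into 4 aliquots. These received Decapping Pyrophosphohydrolase (DPH), Cap-Clip (an acid pyrophosphatase), TAP (Tobacco Acid Pyrophosphatase) or no decapping enzyme. Each group held 2 libraries, replicates 1 and 2, from 2 cultures. The libraries differed in depth, with 1789278 and 3479399 tags for DPH, 1268757 and 8475181 for Cap-Clip, 10739034 and 1747139 for TAP, and 736236 and 80721 for no enzyme. In the 5' regions of genes (200 nt before the start codon to +50) LEU2, URA3 and MET17 had 0 tags in any library, MFA1 and MFA2, which encode the a-factor pheromone, averaged 3087 and 3138 CPM (counts scaled to the total tags of the library) over the 6 enzyme-treated libraries, and the alpha-specific genes MF(ALPHA)1, MF(ALPHA)2, STE3 and SAG1 stayed at or under 1.80 CPM.

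The mRNA cap is an inverted guanosine joined to the first nucleotide through a triphosphate bridge, and a decapping pyrophosphatase cuts the bridge to leave a 5' phosphate that RNA ligase can use. In yeast, RNA polymerase II starts by preference at a purine preceded by a pyrimidine, and some genes hold further promoters or start sites inside the coding region. Uncapped 5' ends also arise within coding regions, because the exonuclease Xrn1 can degrade an mRNA behind the last translating ribosome. An uncapped end in these libraries should have lost its phosphate before the ligation.

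The 60-nt windows of 16 internal positions are shown first, since they carry the 3 patterns described below. They run from 20 nt before the tag start to 40 nt from it on, lie within a coding exon and are copied from the R64 reference on the gene's strand. The name gives the gene and the coding position of the first base of the tag. In the first set, which was higher with the 3 enzymes than without, capitals mark the bases at -1 and +1 of the tag start and the next ATG.
BOL2 +84 (chrVII:82437-82496, plus strand): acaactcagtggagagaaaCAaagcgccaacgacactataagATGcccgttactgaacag
EMI1 +281 (chrIV:1470744-1470803, minus strand): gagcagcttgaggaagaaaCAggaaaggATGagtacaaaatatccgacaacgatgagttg
ECM1 +59 (chrI:36547-36606, plus strand): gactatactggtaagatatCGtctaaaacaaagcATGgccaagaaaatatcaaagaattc
ERG13 +56 (chrXIII:20441-20500, minus strand): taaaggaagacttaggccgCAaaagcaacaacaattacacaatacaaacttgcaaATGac
ISC1 +79 (chrV:192855-192914, plus strand): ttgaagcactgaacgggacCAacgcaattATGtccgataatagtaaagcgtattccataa
MET7 +168 (chrXV:787142-787201, plus strand): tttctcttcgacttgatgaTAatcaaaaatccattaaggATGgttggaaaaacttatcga

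In the second set, the positions with the highest mean level without enzyme, capitals mark the bases at -1 and +1.
RPL15A +341 (chrXII:202211-202270, minus strand): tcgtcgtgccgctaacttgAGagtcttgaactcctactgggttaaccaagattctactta
HCR1 +545 (chrXII:539006-539065, minus strand): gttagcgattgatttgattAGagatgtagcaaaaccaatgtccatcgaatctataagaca
RPS3 +571 (chrXIV:303230-303289, plus strand): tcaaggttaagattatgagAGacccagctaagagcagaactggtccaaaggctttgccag
GPM1 +498 (chrXI:163849-163908, minus strand): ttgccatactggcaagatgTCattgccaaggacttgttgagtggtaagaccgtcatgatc
KRS1 +1461 (chrIV:526880-526939, plus strand): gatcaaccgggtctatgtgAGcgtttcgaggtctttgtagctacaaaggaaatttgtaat

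In the third set, which was higher with DPH than with TAP, the capital marks the base at +2, the second base of the tag.
RPP0 +715 (chrXII:806581-806640, plus strand): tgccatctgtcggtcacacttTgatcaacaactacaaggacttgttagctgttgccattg
PDC1 +1320 (chrXII:232723-232782, minus strand): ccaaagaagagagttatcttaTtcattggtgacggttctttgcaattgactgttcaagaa
FBA1 +245 (chrXI:327204-327263, minus strand): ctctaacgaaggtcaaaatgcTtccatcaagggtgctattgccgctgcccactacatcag
RPS1A +356 (chrXII:1018514-1018573, minus strand): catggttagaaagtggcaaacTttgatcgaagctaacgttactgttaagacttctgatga
RPS17B +372 (chrIV:1354829-1354888, minus strand): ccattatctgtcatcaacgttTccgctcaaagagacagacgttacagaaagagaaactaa

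The no-enzyme libraries held few tags and differed from each other. Internal positions took 76.3% of the tags of no-enzyme replicate 1 and 22.6% of those of replicate 2 (95% Wilson intervals 76.2% to 76.4% and 22.3% to 22.9%), while 5' regions took 14.0% and 71.6%. Enzyme-treated libraries held 5.56% and 5.63% of their tags at internal positions with DPH, 4.12% and 5.26% with Cap-Clip, and 4.64% and 4.22% with TAP. The share was lower in each enzyme-treated library than in either no-enzyme library, with means of 4.91% ± 0.669 (SD, n = 6) with enzymes and 49.5% ± 38.0 (SD, n = 2) without. The 2-sided exact permutation test gave p = 0.0714, the smallest that 6 libraries against 2 allow, which is 0.119 after BH (Benjamini-Hochberg) adjustment over the 10 measures tested in this way. The difference of -44.6 percentage points was -25.1 with each position counted once (exact permutation p = 0.214), so that the groups then overlapped. It was -42.8 with bodies counted from +100 and -38.3 without the 50 genes with most internal tags (exact permutation p = 0.0714 for both). Tests of 2 libraries against 2 cannot give a p under 0.333. Because no-enzyme replicate 2 is so shallow that 1 tag is 12.4 CPM, counts of calls against no enzyme are also given without replicate 1, where they then rest on replicate 2 alone. Most of the 152 named results against no enzyme that passed the test lost their call without replicate 1.

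Internal tags were sparse. Of the 8253537 coding positions that meet the rule, 12.7% held a tag in any library, and 72.8% of those with a tag held 1 tag over all 8 libraries. Only 403 positions held 100 tags or more, and the highest count was 1407. When every library was thinned to the 80721 tags of the smallest, 901 and 849 gene bodies had at least 2 tags with DPH, 653 and 876 with Cap-Clip, 736 and 691 with TAP, and 4434 and 2792 without enzyme. For counts of gene bodies, chi-square between replicates over its degrees of freedom, which is near 1 where sampling is the only source of spread, was 1.69 for DPH, 1.17 for Cap-Clip, 1.04 for TAP and 1.22 for no enzyme. The measure also depends on depth. It was between 7.93 and 14.0 over 5' regions.

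With a decapping enzyme, the internal tag rate was higher just after the start codon than further into the coding region, from +501 to +1000. The tag rate at +51 to +100, per position and relative to the library's own rate at +501 to +1000, was 2.85 and 2.69 with DPH, 3.28 and 3.05 with Cap-Clip, 3.46 and 3.44 with TAP, and 1.19 and 1.61 without enzyme. The 4 groups did not overlap in this rate. In absolute terms the same stretch held 17.4 and 17.6 CPM per 1000 positions with DPH, 14.7 and 17.7 with Cap-Clip, 17.4 and 15.8 with TAP, and 114 and 44.4 without enzyme. The no-enzyme libraries were thus higher per tag sequenced in this stretch, and flatter relative to the rest of the coding region.

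**Figure D1:**
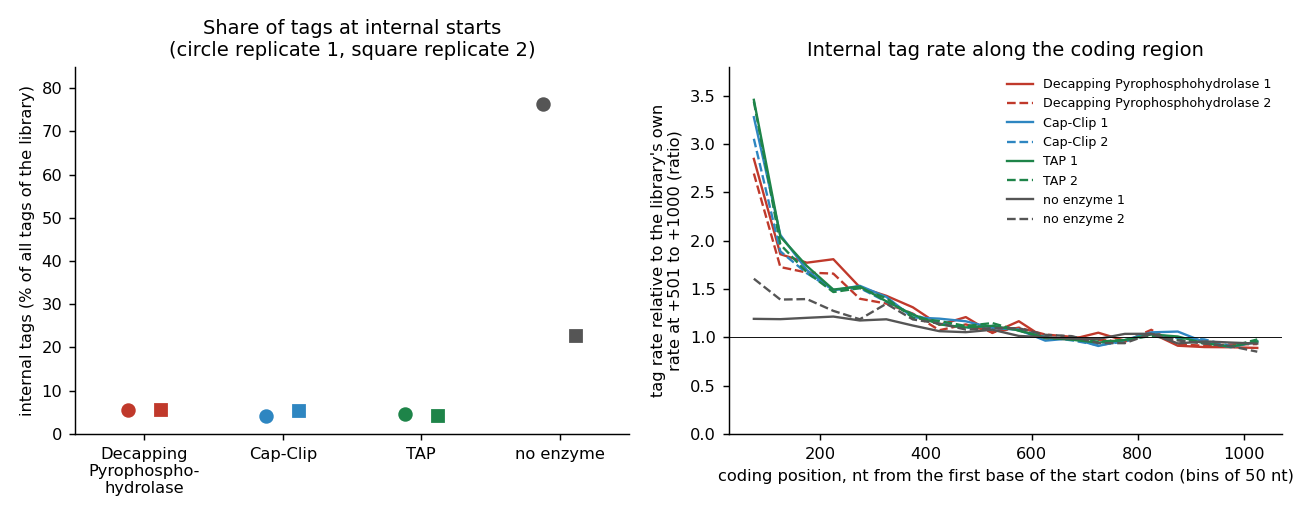
Left, internal tags as a percent of all tags of each library (circles replicate 1, squares replicate 2). Right, the internal tag rate in bins of 50 nt from +51, divided by the library's own rate at +501 to +1000 (ratio). The 6 enzyme-treated libraries lie between 4.12% and 5.63% on the left and between 2.69 and 3.46 in the first bin on the right, while the no-enzyme libraries lie at 76.3% and 22.6% and at 1.19 and 1.61.

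When the coding region was split into 10 equal parts from +51 to the stop codon, the first of them held 11.1% and 11.5% of the internal tag rate, taken per available position, with DPH, 14.1% and 13.3% with Cap-Clip, 15.3% and 15.4% with TAP, and 6.95% and 8.93% without enzyme. The 6 enzyme-treated libraries exceeded both no-enzyme libraries by 5.52 percentage points on average (exact permutation p = 0.0714, the smallest the design allows). The gap depended on how tags were counted. It was 1.66 points with bodies counted from +100 (exact permutation p = 0.214), 1.61 with each position counted once (exact permutation p = 0.286) and 4.68 without the 50 genes with most internal tags (exact permutation p = 0.0714). The first part was the highest of the 10 with Cap-Clip and with TAP, but not with DPH. The ninth part held 12.7% and 12.3% with DPH, 11.6% and 11.9% with Cap-Clip, 10.7% and 10.96% with TAP, and 12.9% and 11.8% without enzyme, so that DPH was higher there than in the first part. In the last of the 10 parts the shares overlapped, with 12.1% and 10.3% with DPH, 10.1% and 10.6% with Cap-Clip, 8.90% and 8.88% with TAP, and 10.9% and 9.06% without enzyme. The difference there was 0.19 percentage points (exact permutation p = 1), and it changed sign when DPH replicate 1 (-0.20) or no-enzyme replicate 2 (-0.71) was left out.

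Starts close to the start codon also differed in the first ATG that lies downstream of them. A ribosome that scans from a 5' end usually begins at the first ATG, so a first ATG in the gene's own frame would give a shorter form of the same protein. Tags with no ATG between them and the stop codon, in any frame, were left out of this measure. At +51 to +100 the first downstream ATG was in the gene's frame for 46.8% and 44.8% of the remaining internal tags with DPH, 51.6% and 50.8% with Cap-Clip, 54.0% and 53.6% with TAP, and 27.3% and 32.3% without enzyme. Of all coding positions in that stretch with an ATG downstream, 22.4% have their first ATG in frame. The enzyme-treated libraries exceeded the no-enzyme libraries by 20.5 percentage points (means 50.3% ± 3.72, SD, n = 6, and 29.8% ± 3.54, SD, n = 2, exact permutation p = 0.0714). From +101 on the groups differed by 0.985 percentage points, with means of 33.0% ± 0.183 with enzymes and 32.0% ± 0.267 without, against 31.1% of coding positions. This measure was chosen after seeing the data.

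**Figure D2:**
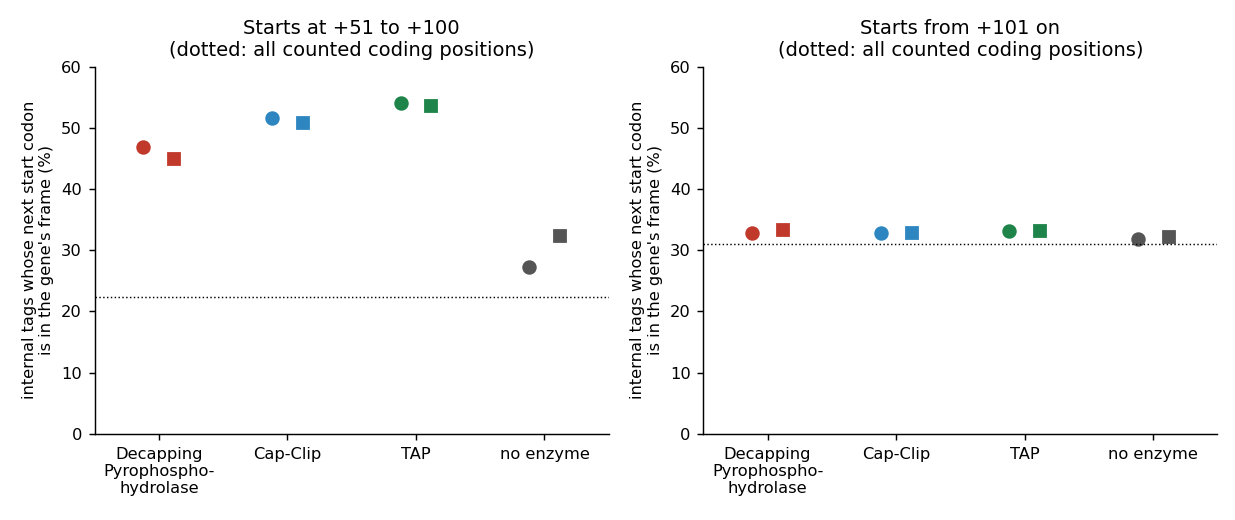
Of internal tags with an ATG downstream in the coding region, the percent whose first ATG is in the reading frame of the gene, by library (circles replicate 1, squares replicate 2), for starts at +51 to +100 (left) and from +101 on (right). Dotted lines give all coding positions that meet the rule and have an ATG downstream, 22.4% on the left and 31.1% on the right. The enzyme-treated libraries stand above both no-enzyme libraries on the left by more than the spread within groups.

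Single positions were tested over the whole table with edgeR's quasi-likelihood test and BH-adjusted p under 0.05, and 1262 internal positions in 441 genes had enough tags to be tested over the 8 libraries. Of these, 101 positions in 48 genes were higher with the mean of the 3 enzymes than without, or 8.0% of those tested, and 1022 positions in 357 genes were lower (81.0%). Among the other 22306 positions of the table that were tested, 63.0% were higher with the enzymes and 4.17% were lower. A position needed at least 5.66 CPM in 2 libraries to be tested, and that choice fixed part of these shares. Of the 1022 lower positions, 918 did not reach this level in 2 enzyme-treated libraries, and of the 101 higher ones, 100 did not reach it in both no-enzyme libraries, so the counts describe the positions and support nothing about internal positions in general. The count of higher internal positions depended on scaling and on 1 library: TMM scaling gave 2, DESeq2 gave 0, and without no-enzyme replicate 1 there were 0 higher and 44 lower. Each enzyme alone, against the same no-enzyme libraries, had 111 higher (8.8%) and 933 lower (73.9%) with DPH, 113 (8.95%) and 1038 (82.3%) with Cap-Clip, and 121 (9.59%) and 1048 (83.0%) with TAP. Library totals are the scale of every CPM value here.

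The higher positions were mostly near the start of the coding region. Their median position was +97, 52 of the 101 lay at or before +100, and 12 lay past the middle of the coding region. A pyrimidine at -1 followed by a purine at +1 was present at 97 of 101 positions, with A at +1 in 72.3% and G in 27.7%. The first ATG downstream was in frame at 82 of 101, at a median distance of 25 nt. In 40 of the 48 genes the gene body held over 50% of the tags of body and 5' region together in enzyme-treated libraries, and in 21 of them the 5' region averaged under 1 CPM. The 1022 lower positions had a pyrimidine-purine step at 14.3%, A at -1 at 48.5%, a first ATG in frame at 38.7% of those with an ATG downstream, and a median position of +384.5. Of all internal positions tested against no enzyme, 24.1% had a pyrimidine-purine step and 42.4% had A at -1. Among those with an ATG downstream, 43.7% had their first ATG in frame, and the median of all tested positions was +328.5. The lower positions were most of those tested, and on each of these measures lay nearer to the tested positions than the higher ones did. The shares of the higher and lower positions are a description, and no test was made of them.

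BOL2, which encodes a BolA-family protein of the cytosol that takes part in iron sensing, had tags at +84 in all enzyme-treated libraries, with 19.6 and 18.97 CPM with DPH, 32.3 and 39.2 with Cap-Clip, 46.1 and 38.3 with TAP, and 0 in both no-enzyme libraries. The window above has C at -1, A at +1 and the first ATG 22 nt on, which is codon 36 of the annotated protein. Against 3 tags over both no-enzyme libraries, the level a count of 0 allows, the 6 enzyme-treated libraries together were at least 10.3-fold higher. A stronger start 10 nt before it, at +74, had 110 and 67.8 CPM with DPH, 91.4 and 128 with Cap-Clip, 131 and 112 with TAP, and 6.79 and 61.9 without enzyme, and did not pass the test (adjusted p = 0.084, edgeR).

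EMI1, a gene needed for the induction of meiosis genes, had 43.6 and 11.5 CPM at +281 with DPH, 34.7 and 28.8 with Cap-Clip, 30.8 and 22.9 with TAP, and 0 in both no-enzyme libraries, so the enzymes together were at least 7.69-fold higher. The position lies 49.8% of the way along the coding region, and the first ATG follows 8 nt on, in frame, as codon 97. The DPH replicates differed here by more than those of the other enzymes. Nearly all tags of EMI1 fell in the body: its 5' region averaged 0.321 CPM with enzymes and its body 178 CPM.

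ECM1, which encodes a factor for export of the large ribosomal subunit, had 21.2 and 15.5 CPM at +59 with DPH, 26.01 and 24.7 with Cap-Clip, 26.4 and 16.03 with TAP, and 0 in both no-enzyme libraries. ERG13, the HMG-CoA synthase of sterol synthesis, had 13.4 and 17.2 CPM at +56 with DPH, 15.8 and 13.0 with Cap-Clip, 16.2 and 16.6 with TAP, and 0 in both no-enzyme libraries. These were at least 6.40-fold and at least 4.13-fold higher with the enzymes, and in both genes the next ATG is in frame, at codon 25 in ECM1 and codon 31 in ERG13. ISC1, a phospholipase C that acts on inositol sphingolipids, had 7.27 and 10.1 CPM at +79 with DPH, 12.6 and 13.3 with Cap-Clip, 15.6 and 17.2 with TAP, and 0 in both no-enzyme libraries (at least 3.70-fold for the enzymes together). The ERG13 start at +62, 6 nt further on, was far more used, with 111 and 123 CPM with DPH, 67.8 and 84.0 with Cap-Clip, 103 and 99.02 with TAP, and 4.07 and 61.9 without enzyme (adjusted p = 0.068, edgeR).

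MET7, which encodes folylpolyglutamate synthetase, differed among the enzymes at +168. It had 6.71 and 3.16 CPM with DPH, 15.8 and 19.8 with Cap-Clip, 20.8 and 24.0 with TAP, and 0 in both no-enzyme libraries. The DPH libraries were the lowest of the enzyme-treated ones. DPH replicate 2 was below the level needed for testing, which the Cap-Clip and TAP libraries reached, so no p or fitted fold is given. VAS1, the valyl-tRNA synthetase whose mitochondrial and cytosolic forms begin at different start codons, had the same order at +83, with 2.24 and 5.75 CPM with DPH, 18.1 and 14.7 with Cap-Clip, 18.2 and 18.3 with TAP, and 0 in both no-enzyme libraries. Its next ATG is codon 47, in frame. A start in VAS1 at +62 had 39.1 and 32.5 CPM with DPH, 40.2 and 49.6 with Cap-Clip, 51.1 and 53.2 with TAP, and 2.72 and 24.8 without enzyme. Each enzyme-treated library was above both no-enzyme libraries there. No-enzyme replicate 1 was below the level needed for testing, so no p or fitted fold is given.

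The remaining positions named by the same rule were YBR090C +147, YFR006W +127 and YMR114C +859, which had 0 tags in both no-enzyme libraries and were at least 3.46-fold to 3.87-fold higher with the enzymes. The genes with the most higher positions were PRT1 with 9, which encodes a subunit of the initiation factor eIF3, and EMI1, MAK11 and VAS1 with 6 each. MAK11, needed for the large ribosomal subunit, had 33.0 and 31.0 CPM at +133 with DPH, 70.1 and 76.5 with Cap-Clip, 89.8 and 76.7 with TAP, and 2.72 and 12.4 without enzyme. The no-enzyme libraries held 3 tags together there, and each enzyme-treated library was above both of them. PRT1 +78 had 25.7 and 26.4 CPM with DPH, 44.9 and 45.3 with Cap-Clip, 58.5 and 60.7 with TAP, and 1.36 and 12.4 without enzyme. The 12.4 CPM of no-enzyme replicate 2 is a single tag at both positions. No-enzyme replicate 1 was below the level needed for testing at both, so no ratio is given.

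**Figure D3:**
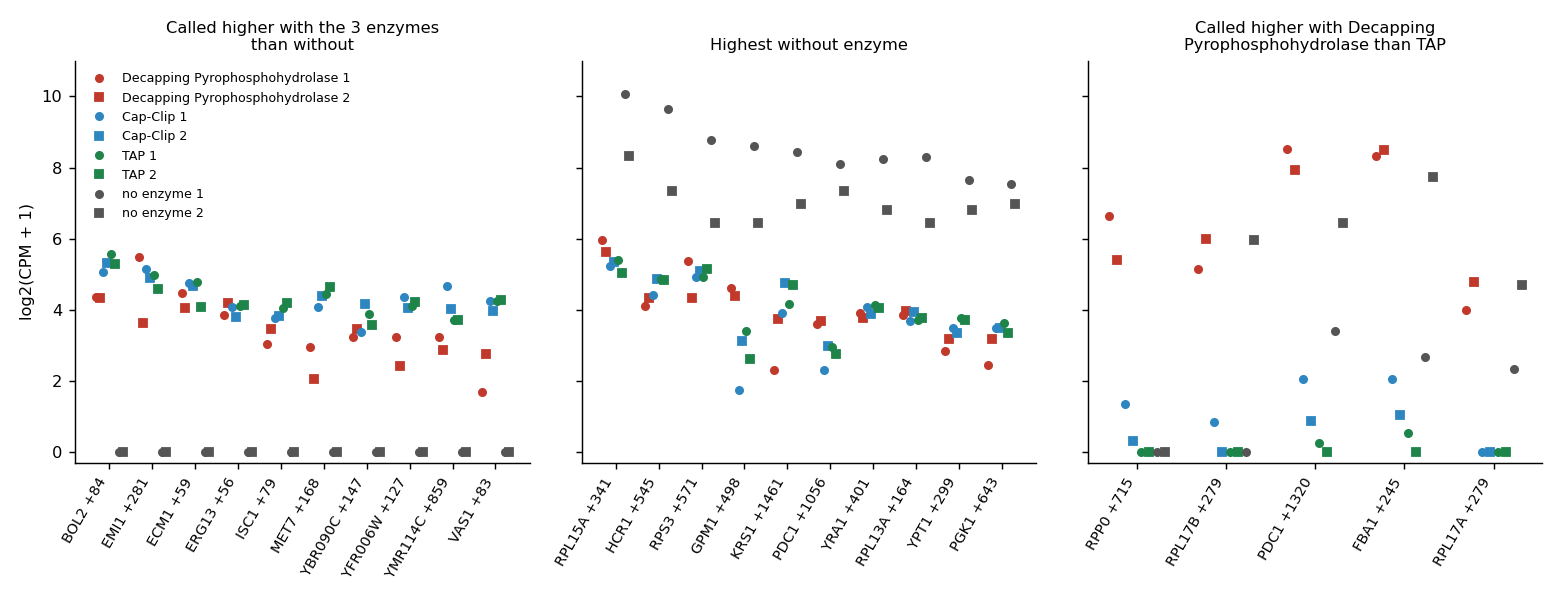
CPM of each library at 10 positions called higher with the 3 enzymes than without (left), at the 10 positions with the highest mean without enzyme (middle) and at 5 positions called higher with DPH than with TAP (right), on a log2(CPM + 1) axis. Circles are replicate 1 and squares replicate 2. Both no-enzyme libraries are at 0 in the whole left panel and above all enzyme-treated libraries in the whole middle panel, and the DPH libraries stand above Cap-Clip and TAP in the right panel.

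The positions with the most tags without enzyme lay deep inside abundant mRNAs, several of them with AG across the start. RPL15A, a protein of the large ribosomal subunit, had 61.5 and 48.6 CPM at +341 with DPH, 36.3 and 39.4 with Cap-Clip, 41.0 and 32.1 with TAP, and 1064 and 322 without enzyme. Both no-enzyme libraries were above all 6 others, and the enzymes were lower by a log2 difference of -4.05 ± 0.94 (edgeR adjusted p = 0.0012). RPL15A has a close paralog, RPL15B, so tags may have been assigned between them, and the handling of reads that match both is not given in the sources used here.

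HCR1, a factor associated with eIF3, had 16.2 and 19.3 CPM at +545 with DPH, 20.5 and 28.1 with Cap-Clip, 28.03 and 27.5 with TAP, and 793 and 161 without enzyme (log2 difference -4.41 ± 0.87, edgeR adjusted p = 0.00021). RPS3, a protein of the small subunit, had 40.2 and 18.97 CPM at +571 with DPH, 29.2 and 33.0 with Cap-Clip, 29.2 and 34.3 with TAP, and 439 and 86.7 without enzyme (log2 difference -3.18 ± 0.69, adjusted p = 0.00066, edgeR). KRS1, the lysyl-tRNA synthetase, had 3.91 and 12.4 CPM at +1461 with DPH, 14.2 and 25.8 with Cap-Clip, 17.04 and 25.2 with TAP, and 348 and 124 without enzyme (log2 difference -4.09 ± 0.40, adjusted p = 2.4e-10, edgeR). In all 3 genes the groups did not overlap, and the tag begins at the G of an AG step, as it does in RPL15A, YRA1 +401 and RPL13A +164. GPM1 +498, in the gene of phosphoglycerate mutase, has TC instead and had 23.5 and 20.1 CPM with DPH, 2.36 and 7.67 with Cap-Clip, 9.498 and 5.15 with TAP, and 387 and 86.7 without enzyme (log2 difference -4.76 ± 0.40, adjusted p = 8.3e-12, edgeR).

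Some positions held almost no tags with an enzyme. TAL1, the transaldolase gene, had 0.559 and 1.15 CPM at +926 with DPH, 0 in both Cap-Clip and both TAP libraries, and 42.1 and 12.4 without enzyme. CDC19, the pyruvate kinase gene, had 0 CPM at +441 in both DPH and both Cap-Clip libraries, 0.466 and 0 with TAP, and 19.02 and 24.8 without enzyme. In no-enzyme replicate 2 these values are 1 tag and 2 tags. Both positions entered the test through the no-enzyme libraries alone, so no p or fitted fold is given.

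Internal tags without enzyme favoured the middle base of a codon. The tag began at codon position 2 for 32.7% and 32.7% of internal tags with DPH, 33.9% and 34.1% with Cap-Clip, 34.2% and 34.3% with TAP, and 37.9% and 35.8% without enzyme, against 33.3% of coding positions. The enzyme mean was lower by 3.20 percentage points (means 33.6% ± 0.749, n = 6, and 36.9% ± 1.47, n = 2, exact permutation p = 0.0714). Position 3 took 33.9% and 34.3% with DPH, 31.2% and 31.6% with Cap-Clip, 31.1% and 31.5% with TAP, and 29.2% and 31.0% without enzyme. DPH was the highest group at position 3 and the lowest at position 2.

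Of the last 50 nt, the position 17 nt before the stop codon held the most tags in every library other than DPH replicate 2. It held 4.02% and 2.80% of the tags in the last 50 nt with DPH, 3.96% and 4.31% with Cap-Clip, 5.21% and 3.796% with TAP, and 7.51% and 5.16% without enzyme, against 1.98% of coding positions there. Enzyme-treated libraries averaged 4.02% ± 0.778 (n = 6) and no-enzyme libraries 6.33% ± 1.66 (n = 2), a difference of -2.32 percentage points that did not separate the groups (exact permutation p = 0.143). The groups were separate, each at exact permutation p = 0.0714, with each position counted once (-1.67 points), with bodies counted from +100 (-2.40) and without the 50 genes with most internal tags (-2.50). The value of no-enzyme replicate 2 rests on 21 of 407 tags.

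The rate at the same distance is described here, without a test, for single codons. Tags 17 nt before TGA, over the mean of the positions 26 to 8 nt before it, stood at 3.16 and 1.93 with DPH, 3.67 and 3.12 with Cap-Clip, 3.70 and 2.22 with TAP, and 4.93 and 5.14 without enzyme, where no-enzyme replicate 2 held 10 tags. Before TAG they stood at 2.28 and 2.14 with DPH, 2.19 and 2.39 with Cap-Clip, 2.91 and 2.05 with TAP, and 4.16 and 5 without enzyme, and before TAA, the most frequent stop codon here, at 1.59 and 1.27 with DPH, 1.48 and 1.89 with Cap-Clip, 2.30 and 1.98 with TAP, and 3.22 and 1.32 without enzyme. The groups overlapped before TAA and not before TGA or TAG, and no-enzyme replicate 2 held 5 tags at each of TAG and TAA. Before CGA, an arginine codon read by inosine in the tRNA and decoded slowly in yeast, the ratio was 1.40 and 1.63 with DPH, 1.56 and 1.51 with Cap-Clip, 1.49 and 1.52 with TAP, and 2.69 and 2.53 without enzyme. Before CCG, a proline codon, it was 2.02 and 1.93 with DPH, 2.25 and 2.21 with Cap-Clip, 2.38 and 2.39 with TAP, and 2.46 and 1.85 without enzyme. Before CGC, another arginine codon, the order was the opposite, with 2.46 and 2.14 with DPH, 2.74 and 2.91 with Cap-Clip, 3.12 and 3.01 with TAP, and 1.11 and 0.740 without enzyme, where replicate 2 held 6 tags. Over all 64 codons, both no-enzyme libraries were above every enzyme-treated library for 29, below every one for 3 and overlapped them for 32. The codons given here were chosen after their values were seen.

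**Figure D4:**
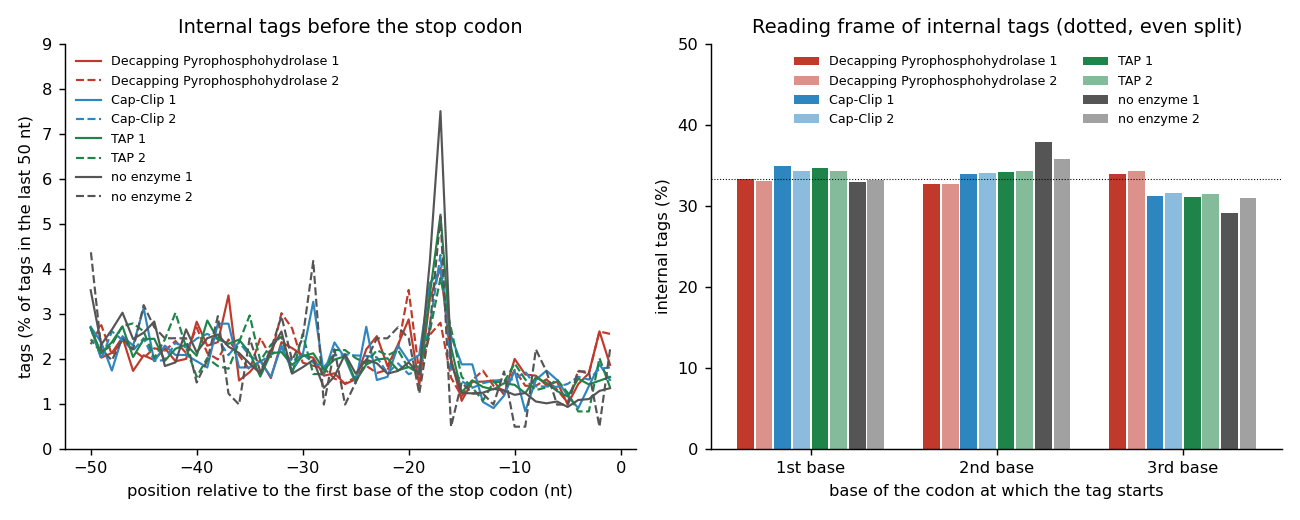
Left, tags at each of the last 50 nt before the stop codon as a percent of the tags in those 50 nt, by library. Right, bars from 0 give the percent of internal tags that begin at each base of a codon, with a dotted line at an even split. The peak 17 nt before the stop codon reaches 7.51% and 5.16% without enzyme and 2.80% to 5.21% with enzymes, and the no-enzyme libraries are the highest at the second base, at 37.9% and 35.8%.

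The bases around internal starts differed between the enzymes. A pyrimidine-purine step at -1 and +1 was found at 27.6% and 26.4% of internal tags with DPH, 34.7% and 32.5% with Cap-Clip, 35.9% and 34.3% with TAP, and 21.5% and 21.5% without enzyme, against 23.1% of coding positions. The enzymes exceeded no enzyme by 10.4 percentage points (exact permutation p = 0.0714). The excess was 5.37 points with each position counted once, 7.46 with bodies counted from +100 and 10.7 without the 50 genes with most internal tags, with the groups separate each time (exact permutation p = 0.0714). DPH was below TAP by a difference of -8.12 points and below Cap-Clip by -6.61 points (exact permutation p = 0.333 for each, the smallest possible). In the rest of the table the same step was found at 82.8% and 80.0% of tags with DPH, 90.3% and 89.1% with Cap-Clip, 89.0% and 90.5% with TAP, and 37.2% and 80.3% without enzyme. Among single steps, CA held 9.74% and 9.32% of internal tags with DPH, 12.8% and 11.6% with Cap-Clip, 13.0% and 12.3% with TAP, and 6.66% and 6.84% without enzyme. AG held 9.002% and 9.23% without enzyme, more than in any enzyme-treated library. The commonest step without enzyme was AA, at 15.1% and 14.7%, against 11.5% to 12.6% with enzymes.

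Shares of the 16 steps were compared by limma on the log2 scale. BH adjustment ran over the 16 steps and all comparisons of 2 groups together. For the mean of the 3 enzymes against no enzyme it ran separately, over the 16 steps. Of 16 steps, 15 differed between DPH and TAP (93.8%), 15 between DPH and Cap-Clip (93.8%) and 3 between Cap-Clip and TAP (18.8%). Between the mean of the 3 enzymes and no enzyme 13 differed (81.2%). CA was higher with the enzymes than without by 0.75 ± 0.05 (SE) on the log2 scale and AG lower, at -0.47 ± 0.05. Shares of 16 steps sum to 100%, so a rise in one lowers the others.

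With DPH, internal tags had T as their second base far more often than in any other group. T stood at +2 in 50.7% and 48.7% of internal tags with DPH, 27.4% and 26.8% with Cap-Clip, 26.1% and 25.9% with TAP, and 27.2% and 30.1% without enzyme, against 27.6% of coding positions. DPH exceeded TAP by a log2 difference of 0.93 ± 0.04 (limma adjusted p = 2.3e-07, over all bases, offsets and comparisons of 2 groups), and exceeded Cap-Clip by 0.87 ± 0.04 (limma adjusted p = 3.1e-07). T was also higher at +1 (log2 difference from TAP 0.74) and +3 (0.66), A higher at -3 (0.26), and A at +2 and G at +1 lower (-0.59 and -0.62, each past the limma threshold). In the rest of the table T at +2 was found at 27.6% and 27.9% of tags with DPH, 22.6% and 22.9% with Cap-Clip, 22.9% and 23.0% with TAP, and 28.5% and 26.5% without enzyme, a smaller gap. These measures were chosen after seeing the data.

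**Figure D5:**
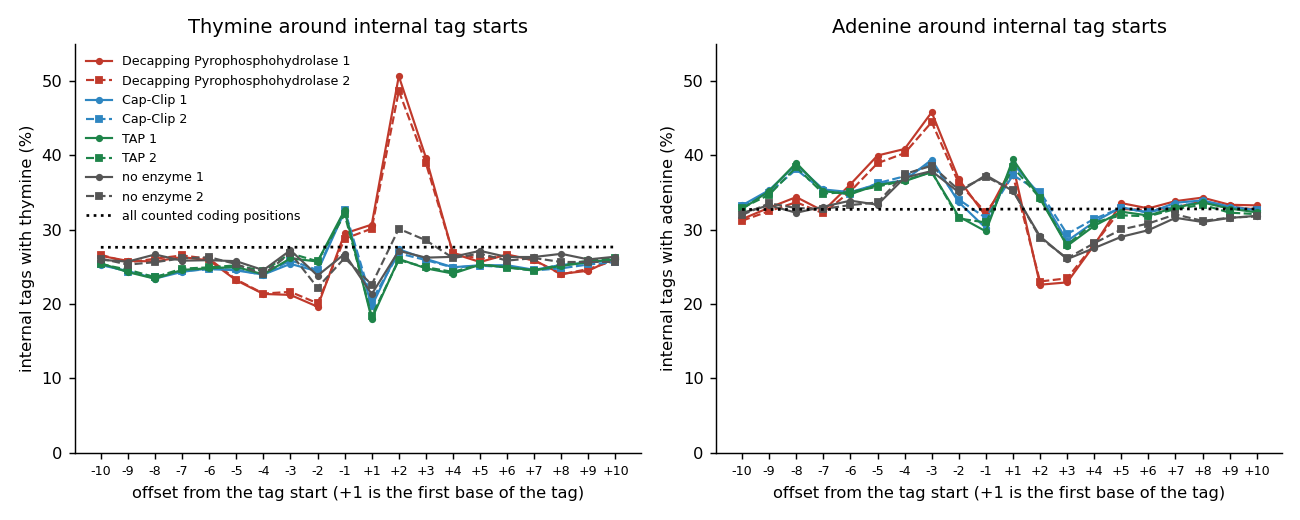
Percent of internal tags with thymine (left) or adenine (right) at each base from 10 before to 10 from the tag start on, where +1 is the first base of the tag, by library. Dotted lines give all coding positions that meet the rule. Thymine at +2 reaches 50.7% and 48.7% in the DPH libraries and lies between 25.9% and 30.1% in the 6 others, and adenine at -1 is highest in the no-enzyme libraries, at 37.4% and 37.1%.

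Single positions were also compared between enzymes. Of 586 internal positions tested over the 6 enzyme-treated libraries, 261 in 141 genes were higher with DPH than with TAP (44.5%) and 50 were lower (8.53%), by edgeR's quasi-likelihood test with TMM scaling. Against Cap-Clip, 248 were higher (42.3%) and 43 lower (7.34%). On library totals the counts were 234 higher and 120 lower than TAP, and 227 higher and 96 lower than Cap-Clip. Of the 28843 other positions tested, 22.0% were higher and 15.4% lower with DPH than with TAP. The 2 comparisons share the DPH libraries. A position entered this test with at least 3.796 CPM in 2 libraries. Of the 261 higher positions, 242 did not reach that level in both TAP libraries, and of the 50 lower ones, 38 did not reach it in both DPH libraries. The counts are therefore a description, and below a p-value of a single position is given only where both groups reached that level. The 261 positions held 7.36% and 6.41% of internal tags with DPH, 1.19% and 0.987% with Cap-Clip, 1.06% and 1.05% with TAP, and 0.660% and 1.58% without enzyme, where replicate 2 had 289 tags at them; these values partly chose the positions.

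Of the 261 higher positions, 224 (85.8%) had T at +2, 60.5% had T at +3 and 70.5% had A at -3, while 16.5% had a pyrimidine-purine step. They lay along the whole gene, with a median of +324, and 46.0% began at the third base of a codon. Of all 586 tested, 54.3% had T at +2, 41.8% T at +3, 53.4% A at -3 and 47.1% a pyrimidine-purine step. Their median was +207.5, and 36.7% began at the third base of a codon. Among those with an ATG downstream, 49.4% had their first ATG in frame. Ribosomal protein genes held 97 of the 261, where 142 positions were tested, and glycolytic genes held 52, where 69 were tested, with 10 in FBA1 and 9 each in GPM1 and PDC1. The 50 lower positions were of the other kind: 35 had a pyrimidine-purine step, 39 had their first ATG in frame, and their median was +126.5. These shares come from the same tags as the base shares above, so they are a description and were not tested.

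RPP0, the stalk protein of the large ribosomal subunit, had 98.4 and 41.7 CPM at +715 with DPH, 1.58 and 0.236 with Cap-Clip, and 0 in both TAP and both no-enzyme libraries. Pooled, the DPH libraries were at least 254-fold above the 3 tags that a count of 0 allows over both TAP libraries. DPH replicate 1 was the higher, and the position entered the test through the DPH libraries alone. PDC1, the main pyruvate decarboxylase, had 366 and 243 CPM at +1320 with DPH, 3.15 and 0.826 with Cap-Clip, 0.186 and 0 with TAP, and 9.51 and 86.7 without enzyme. Its ratio of DPH to TAP, with the libraries of each group pooled, was 1777. The 95% counting interval was 491 to 14690, since the TAP libraries held few tags there.

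FBA1, the aldolase of glycolysis, had 322 and 357 CPM at +245 with DPH, 3.15 and 1.06 with Cap-Clip, 0.466 and 0 with TAP, and 5.43 and 211 without enzyme. The position entered the test through the DPH libraries alone, so no p or fitted fold is given. FBA1 +245 and PDC1 +1320 also had tags without enzyme, at 17 and 7 tags in the shallow replicate 2, though below both DPH libraries in CPM. RPP0 +715 had none.

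RPS1A +356 had 29.6 and 7.47 CPM with DPH, 0 in both Cap-Clip and both TAP libraries, and 4.07 and 0 without enzyme (at least 62.4-fold above TAP). RPS17B +372, close to the stop codon, had 26.8 and 5.75 CPM with DPH and 0 in the 6 other libraries (at least 53.7-fold). Both encode proteins of the small subunit. Their folds pool both DPH libraries, of which replicate 1 was the higher, and both positions entered the test through DPH alone. RPL5 +327 had 52.5 and 50.9 CPM with DPH, 0 in both Cap-Clip libraries, 0.372 and 1.14 with TAP, and 5.43 and 24.8 without enzyme. RPL5 +327 entered the test through the DPH libraries alone, so no p or fitted fold is given. RPL17B and RPL17A were both called at +279, but their windows differ at 3 of 60 bases, so tags may have been assigned between them.

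Outside the ribosome and glycolysis, STM1, which binds inactive ribosomes, had 15.1 and 15.5 CPM at +224 with DPH, 0 and 0.236 with Cap-Clip, and 0 in both TAP and both no-enzyme libraries (at least 63.99-fold above TAP, with libraries pooled). CDC48, an ATPase that unfolds ubiquitinated proteins, had 13.4 and 16.4 CPM at +1450 with DPH, 0 and 0.118 with Cap-Clip, 0.0931 and 0 with TAP, and 0 in both no-enzyme libraries. Its pooled ratio to TAP was 192, with a counting interval of 33.5 to 7674.

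Among the positions lower with DPH, MAK11 +140 had 7.27 and 4.89 CPM with DPH, 18.1 and 26.7 with Cap-Clip, 29.1 and 33.8 with TAP, and 0 and 12.4 without enzyme (log2 difference from TAP -1.88 ± 0.30, edgeR adjusted p = 8.7e-06). ISW1 +155, in the gene of a chromatin-remodelling ATPase, had 1.68 and 3.16 CPM with DPH, 21.3 and 15.8 with Cap-Clip, 22.3 and 16.03 with TAP, and 0 and 12.4 without enzyme. MAD1 +69, in a spindle checkpoint gene, had 2.24 and 0.287 CPM with DPH, 10.2 and 7.32 with Cap-Clip, 13.1 and 9.16 with TAP, and 1.36 and 12.4 without enzyme. Neither DPH library reached the level needed for testing at ISW1 +155 or MAD1 +69, so no p or fitted fold is given. FBA1 +890 went the same way, with 0 in both DPH libraries, 5.52 and 6.61 CPM with Cap-Clip, 11.6 and 13.7 with TAP, and 5.43 and 0 without enzyme. FBA1 thus held positions that were higher with DPH and one that was lower.

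Between Cap-Clip and TAP no single internal position and no gene body was called, while 3 of the 16 base steps differed, as given above, and the tag rates at +51 to +100 did not overlap. Of 586 positions edgeR called 0 (0.0%), with 44 at an unadjusted p under 0.05, and DESeq2 called 0. Of 3741 gene bodies edgeR called 0 (0.0%), with 302 at an unadjusted p under 0.05, and DESeq2 also called 0. A replicate block, which pairs libraries by their number on the assumption that it marks the culture, called 1 body, and leaving out the filter on low counts called 6. The median log2 difference over gene bodies was 0.18, and it was 0.03 over all regions of the table. A p above the threshold does not show that both enzymes act alike.

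Summed over the gene body, almost all genes were lower with an enzyme than without, per tag sequenced. Of 4234 gene bodies tested over 8 libraries, edgeR called 14 higher (0.331%) and 4128 lower (97.5%) with the mean of the 3 enzymes. The median log2 difference was -3.79 over bodies and 0.24 over all regions. For regions outside gene bodies the share called is not given here, so the counts alone do not set bodies apart from them. Of the 4128 lower bodies, 1488 did not reach the level needed for testing in 2 enzyme-treated libraries. DPH alone had 7 higher (0.165%) and 4117 lower (97.2%), Cap-Clip 14 (0.331%) and 4115 (97.2%), and TAP 13 (0.307%) and 4109 (97.0%), all against the same no-enzyme libraries. With TMM, which centres on all regions and moves their median from 0.24 to 2.11, the mean of the 3 enzymes had 143 higher and 3652 lower. Without no-enzyme replicate 1 there were 1 higher and 1335 lower.

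Of the 14 bodies that were higher with enzymes, 12 had 14 tags or fewer in the no-enzyme libraries together, while EMI1 had 41 and BOL2 64. The level needed for testing was not reached in both no-enzyme libraries by 9 of the 14. The 14 were YER084W, MIN10, YBR090C, HOP2, YGR050C, MIM2, ECM19, COX23, NDT80, PRM9, EMI1, BOL2, ICL2 and COA4. COX23 and COA4, which act in assembly of cytochrome oxidase in mitochondria, are among those with more tags. COX23 had 41.9 and 42.0 CPM with DPH, 36.3 and 52.5 with Cap-Clip, 49.8 and 45.8 with TAP, and 8.15 and 24.8 without enzyme, a log2 difference of 2.12 ± 0.62 (edgeR adjusted p = 0.0033). COA4 had 26.8 and 40.5 CPM with DPH, 38.6 and 69.6 with Cap-Clip, 57.4 and 39.5 with TAP, and 16.3 and 24.8 without enzyme (log2 difference 1.37 ± 0.57, adjusted p = 0.0298, edgeR).

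EMI1 had 165 and 85.6 CPM in its body with DPH, 196 and 224 with Cap-Clip, 227 and 170 with TAP, and 53.0 and 24.8 without enzyme (log2 difference 1.95 ± 0.62, edgeR adjusted p = 0.0064). BOL2 had 254 and 176 CPM with DPH, 247 and 360 with Cap-Clip, 379 and 314 with TAP, and 72.0 and 136 without enzyme (log2 difference 1.55 ± 0.67, edgeR adjusted p = 0.035). The BOL2 call rests on the stretch just after +51, since counting the body from +100 turned the difference to -1.74.

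In bulk RNA a body total does not tell more molecules from a larger share of ligatable ends. Between enzymes, DPH had 1411 bodies higher than TAP (37.7%) and 40 lower (1.07%) of 3741, by edgeR with TMM. The median log2 difference was 0.57 over bodies and 0.07 over all regions. On library totals these medians were 0.14 and -0.34. The share called among regions outside gene bodies is not given here. Of the 1411, 427 did not reach the level needed for testing in both TAP libraries. On library totals the counts were 670 and 209, and DESeq2 gave 605 and 12. Without TAP replicate 1 the bodies called in either direction were 635, and without DPH replicate 2 they were 966. Against Cap-Clip 921 were higher (24.6%) and 32 lower (0.855%), with 386 and 219 on library totals and 353 and 7 by DESeq2. Without Cap-Clip replicate 2 the calls in either direction were 444, and without DPH replicate 2 they were 626.

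RPS11A, a protein of the small subunit, had the largest rise among bodies named by rule, with 175 and 162 CPM with DPH, 16.6 and 21.8 with Cap-Clip, 14.6 and 10.9 with TAP, and 346 and 74.3 without enzyme. Its log2 difference from TAP was 4.05 ± 0.18 (edgeR adjusted p = 7.8e-14). TYS1, the tyrosyl-tRNA synthetase, had 106 and 110 CPM with DPH, 18.1 and 28.9 with Cap-Clip, 20.6 and 17.2 with TAP, and 486 and 211 without enzyme (log2 difference 2.89 ± 0.18, edgeR adjusted p = 2.2e-11). MAK11 was among the few that were lower, with 88.3 and 81.3 CPM with DPH, 180 and 204 with Cap-Clip, 230 and 212 with TAP, and 201 and 86.7 without enzyme (log2 difference from TAP -1.002 ± 0.16, edgeR adjusted p = 1.9e-05).

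By gene list, 110 of 132 tested ribosomal protein genes were higher with DPH than with TAP, with 0 lower and a median log2 difference of 1.10, beside 37.7% higher and a median of 0.57 over all bodies. Of 18 glycolytic genes 17 were higher (median 1.25), with PDC1 at 731 and 747 CPM with DPH, 150 and 199 with Cap-Clip, 158 and 166 with TAP, and 4325 and 1809 without enzyme. Of 15 cell wall genes 11 were higher (median 1.02), led in abundance by CCW12, a mannoprotein, which differed from TAP by 1.88 ± 0.18 on the log2 scale (edgeR adjusted p = 5.2e-08). Of 19 translation factor genes 12 were higher (0.93), of 13 heat shock genes 7 (0.80), and of 30 ribosome biogenesis genes 9 were higher and 2 lower (0.33). On library totals the higher counts were 79, 15, 9, 8, 6 and 5 in the same order, and 4 ribosome biogenesis genes were lower. Against no enzyme all tested members of these lists were lower with the mean of the 3 enzymes, as nearly all bodies were. No list was tested as a set.

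The share of a gene's tags that fell in its body was low in most genes. Over 3628 genes with at least 20 CPM in body and 5' region together, its median over enzyme-treated libraries was 8.87%, and 1999 genes (55.1%) were under 10%. Library medians were 12.5% and 11.9% with DPH, 6.67% and 7.58% with Cap-Clip, 6.42% and 6.25% with TAP, and 90% and 40% without enzyme. In 119 genes the body held over 50%. The highest were ATP23, a mitochondrial protease, MAK11, MSH5, a protein of meiotic crossing over, RSE1, a splicing factor, and TRM2, a tRNA methyltransferase, with 0 tags in their 5' regions in enzyme-treated libraries, followed by IAI11, CDC16, ISW1, EMI1 and COA4. ATP23 had 30.2 and 28.2 CPM in its body with DPH, 46.5 and 57.5 with Cap-Clip, 58.0 and 49.8 with TAP, and 84.2 and 61.9 without enzyme. These genes had body tags with and without enzyme. The 5' region was counted only as far upstream as the next coding region on the same strand.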

How the data were processed

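5Cap-seq, which ligates an oligonucleotide to decapped 5' ends and sequences from the ligated end, was run on 8 libraries. Per the submitters' processing notes, reads were aligned with Novoalign to R64 (sacCer3). The deposited table holds counts of tags per genomic position and strand for each library, with no normalization; whether the 8-nt random barcode was used to collapse duplicates is not given in the sources used here. Intervals therefore cover counting error only.

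Positions were assigned to genes by the R64 annotation with Python 3.11.15. Counts were tested with edgeR 4.0.16 (quasi-likelihood, BH-adjusted p under 0.05) in R 4.3.3, over all regions or all positions of the table. Comparisons with no enzyme used library totals as scaling, and comparisons between enzymes used TMM. Shares of single libraries were compared by 2-sided exact permutation tests over all assignments with numpy 2.4.6, and Wilson intervals came from scipy 1.17.1. Step and base shares were compared with limma 3.58.1 on a log2 scale. Each test was tested on simulated data. DESeq2 1.42.0, other scaling, no filter on low counts, bins of 20 nt, bodies from +100, each position counted once, leaving out the 50 genes with most internal tags, a replicate block and leaving out each library were alternatives. Base shares, T at +2, A at -1, codons at 17 nt and the first ATG were added after seeing the data.

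Named positions and bodies were chosen by rule: at most 1 position a gene, the 10 with the largest change each way against no enzyme among those called with groups not overlapping (at least 10 CPM with or 20 CPM without enzyme), 5 each way for each pair of enzymes, the 10 highest with and without enzyme, the 10 highest body shares and members of the lists. PRM9, ICL2, NDT80 and other bodies in the count of 14 were named after their values were seen. The positions and gene lists were chosen with earlier results of these data known. Each replicate RNA was divided among the 4 treatments, per the series' design text, but the labels do not say that the replicate number marks the culture, so the pairing in the block is an assumption; the correlation of deviations of same-numbered libraries was between -0.0924 and 0.0813. p-values over 2 libraries a group measure only the spread between these libraries.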

Additional observations from a re-analysis of the deposited data

How the results depend on the processing

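Results against no enzyme rested most on no-enzyme replicate 1. Without it the gene bodies called in either direction were 1336 for the mean of the 3 enzymes, 1129 for DPH, 1320 for Cap-Clip and 1485 for TAP, and the positions called were 44, 13, 61 and 71. DESeq2 called 1582 bodies for DPH, 2395 for Cap-Clip and 2640 for TAP. Between enzymes, DESeq2 called 617 bodies for DPH against TAP and 360 against Cap-Clip, and library totals 879 and 605. For Cap-Clip against TAP, no filter called 6 bodies and the replicate block called 1; with the block, 4 of 152 named results against no enzyme and 0 of 40 between enzymes lost their call. In bins of 20 nt the calls were 5179 for the 3 enzymes, 4998 for DPH, 5187 for Cap-Clip and 5200 for TAP against no enzyme, 900 for DPH against TAP and 716 for DPH against Cap-Clip. The share in the last of the 10 parts turned to -0.20 without DPH replicate 1 and -0.71 without no-enzyme replicate 2. At equal depth the ratio of bodies with tags, enzymes over no enzyme, was 0.217 at 2 tags and 0.0575 at 5 tags. The BOL2 body counted from +100 turned to -1.74 for the mean of the enzymes, -1.65 for Cap-Clip and -1.34 for TAP. The cause of these changes was not tested.

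Leaving out each library in turn gave 1336 to 4165 bodies for the 3 enzymes, 1129 to 4156 for DPH, 1320 to 4153 for Cap-Clip and 1485 to 4150 for TAP against no enzyme, 635 to 1415 for DPH against TAP, 444 to 1029 for DPH against Cap-Clip and 0 to 0 for Cap-Clip against TAP. Positions ranged over 44 to 1130, 13 to 1100, 61 to 1157, 71 to 1165, 259 to 316, 227 to 288 and 0 to 0 in the same order. Differences with enzymes ranged from 4.53 to 6.51 points for the first of the 10 parts, -0.71 to 1.09 for the last, -4.24 to -2.16 for codon position 2, 9.61 to 11.5 for the pyrimidine-purine step, -71.4 to -17.7 for the internal share and -3.49 to -1.14 for the peak before the stop codon, and 84 to 88 step calls were made. Most of the 152 named results against no enzyme lost their call without no-enzyme replicate 1. The 80721 tags of no-enzyme replicate 2 limit what single positions can show.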

Other observations

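Internal tags were unevenly spread over gene lengths. Coding regions under 500 nt held 15.3% and 13.1% of internal tags with DPH, 12.03% and 11.7% with Cap-Clip, 10.9% and 10.3% with TAP, and 9.66% and 9.58% without enzyme, against 2.90% of the coding positions. Those of 2000 nt or more held 22.0% and 21.7% with DPH, 27.4% and 26.8% with Cap-Clip, 28.8% and 29.5% with TAP, and 31.7% and 29.8% without enzyme, against 49.001% of positions. DPH was thus the highest group in short genes and the lowest in long ones, and this was not tested.

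Of 7 genes listed for cryptic promoters in the coding region, which are known from chromatin mutants, FLO8 was not matched and 4 were tested. All 4 were lower with the mean of the 3 enzymes than without, as 97.5% of bodies were. SPB4, a helicase of ribosome assembly, had 16.2 and 8.3 CPM with DPH, 7.1 and 20.3 with Cap-Clip, 16.3 and 15.5 with TAP, and 243 and 74.3 without enzyme. Between DPH and TAP 1 of the 4 was called higher with TMM, VPS72, by a log2 difference of 0.86 ± 0.32 (edgeR adjusted p = 0.029). Of all bodies 37.7% were called higher in this comparison. On library totals 0 of the 4 were called.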
